A study of Mus musculus with 6 samples.

Results

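The genes described here are the Wnt ligands and R-spondins, the receptors that bind them, their secreted antagonists, and the core of the beta-catenin branch as far as AXIN, beta-catenin and the TCF/LEF factors. They were picked by gene symbol and gene type, with earlier results of these data known. That gave 46 of the 23842 genes in the deposited count table, 15932 of them protein-coding. They comprise 16 Wnt ligands, 4 R-spondins, 9 Frizzled receptors, 5 co-receptors (counting the R-spondin receptors Lgr4 and Lgr5), 5 secreted antagonists, 3 intracellular components and 4 TCF/LEF factors. Ror1, Wnt2, Wnt8b, Wnt9b, Fzd10, Sfrp1, Dkk1 and Dkk4, which the choice of symbols also covers, had no protein-coding row in the table used here. Sums over a family cover only the genes with a row. Total RNA had been sequenced from cultured mouse embryonic fibroblasts (MEFs), a mixed mesenchymal culture grown out of dissociated embryos, of C57BL/6 mice. The 3 knockout libraries carry the genotype NGLY1-/- and the 3 control libraries the genotype WT, and all 6 came from untreated cells in high-glucose medium with serum. NGLY1 is the cytosolic enzyme that removes N-linked glycans from misfolded glycoproteins, and the comparison asked how expression differs when it is missing. The labels give neither the deleted part of the gene, the age or sex of the embryos, nor whether the libraries of a group are separate embryos, lines or dishes, so the spread behind every p-value is that of these samples and may be a technical one.

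Wnt proteins are lipid-modified secreted glycoproteins that bind a Frizzled receptor together with a co-receptor. With LRP5 or LRP6, binding stops a complex built on AXIN, APC and GSK3 from marking beta-catenin for destruction, and beta-catenin then joins TCF/LEF proteins on DNA and turns on target genes, among them Axin2, which feeds back on the pathway. With ROR2, ligands such as WNT5A act without beta-catenin on cell polarity and movement. In embryonic mesenchyme these signals help to pattern limb, skin and skeleton, and R-spondins, secreted Frizzled-related proteins and Dickkopf proteins raise or lower them.

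Total counts ran from 27323577 to 37841558 per library, and levels are given as CPM (a gene's count per 1000000 counts of its library, with library totals scaled by TMM). Taken over genes, which are no independent replicates, the correlation of log2 CPM was 0.99 or higher between wild-type replicates 1 and 2 and among the knockout libraries, and 0.979 and 0.982 between wild-type replicate 3 and the other wild-type libraries. Ngly1 itself had 618, 420 and 457 counts in the knockout libraries and 668, 632 and 307 in the wild-type libraries, which does not check the genotype, since counts summed over a gene do not show which part is missing. Directions therefore rest on the labels. Of 12 fibroblast markers, the collagen genes Col1a1 and Col1a2, Fn1 and Vim were abundant in both groups, whereas Lum and Fap had 3 and 9 counts over all libraries. Of 10 tested, 2 were higher (Fn1 at a log2 fold change of 1.77 and Dcn at 2.20) and 6 lower (S100a4 at -2.92, Thy1 at -1.64, Vim at -1.36, Pdgfra at -0.97, Pdgfrb at -0.78 and Col1a2 at -0.39). Among all tested genes, 30.7% were higher and 30.2% lower at a false discovery rate of 5%. The marker counts given below stand beside the same shares. The part of the fibroblast markers in the results on Wnt genes was not tested. Endothelial, leukocyte and skeletal muscle markers summed to at most 3.78 CPM in any library, with Pecam1 at 29 counts and Ptprc at 3 over all libraries. The muscle sum was 3.27 to 3.78 CPM in the knockout and 0.11 to 0.836 CPM in the wild-type libraries, nearly all of it Des (log2 fold change 2.90). Of the endothelial markers, Kdr was higher (0.95), and Tek, also tested, did not pass the threshold (1.27). Pecam1, Cdh5 and Esam, at 29, 23 and 45 counts over all libraries and not tested, were lower in mean value in the knockout libraries. Neural markers summed to 283 to 380 CPM in the knockout and 232 to 367 CPM in the wild-type libraries, mostly Nes, which did not pass the threshold, while 2 of 5 tested were higher, Sox2 at a log2 fold change of 2.95 and Tubb3 at 1.48, and 0 lower. Cartilage and bone markers summed to 76 to 104 CPM and 63.2 to 91.2 CPM, with Sox9 higher (1.34) and Runx2 not past the threshold. Bglap, Sp7 and Acan, at 51, 14 and 9 counts over all libraries and not tested, were lower in mean value in the knockout libraries. Col2a1 and Alpl, at 13 and 3 counts and not tested, were higher. Median log2 fold changes of whole chromosomes were not 0: they were -0.45 for chromosome 9, -0.41 for chromosome 6, 0.43 for chromosome 13 and 0.45 for chromosome 18.

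Genes of all 7 roles differed between the knockout and wild-type libraries. Ligands, R-spondins, Frizzleds, co-receptors and TCF/LEF factors had members that rose and members that fell, while the called secreted antagonists and intracellular components, 2 of each, were all lower. Wnt10a, Wnt11, Wnt6, Rspo2, Fzd3, Fzd4, Fzd5, Fzd9, Ror2, Lef1 and Tcf7 rose. Wnt5a, Wnt7a, Wnt7b, Wnt9a, Wnt4, Wnt10b, Rspo3, Fzd2, Fzd1, Lrp6, Dkk3, Sfrp2, Axin2, Ctnnb1 and Tcf7l2 fell. Of the 46 genes, 36 had enough counts to be tested, and 26 of them differed, 11 higher and 15 lower, at a false discovery rate of 5% (edgeR's quasi-likelihood test, Benjamini-Hochberg adjustment over all genes). Among all 15039 tested genes, 60.9% differed, 30.7% higher and 30.2% lower, so a single call is common in these data. The counts by role given below stand beside the same shares. Called changes reached at least 2-fold for 22 of the 36, against 28.5% of all tested genes, and at least 4-fold for 17, against 11.6%, and the median size of the log2 fold change was 1.77 against 0.59. Genes that entered the test through 1 group only, such as Wnt5a, Fzd3 and Rspo3, had to differ, so these counts describe the genes and do not set them apart. All 3 knockout libraries lay above all 3 wild-type libraries for 11 of the tested genes and below them for 15, where 33.8% and 33.5% of all tested genes were separated in that way.

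**Figure D1:**
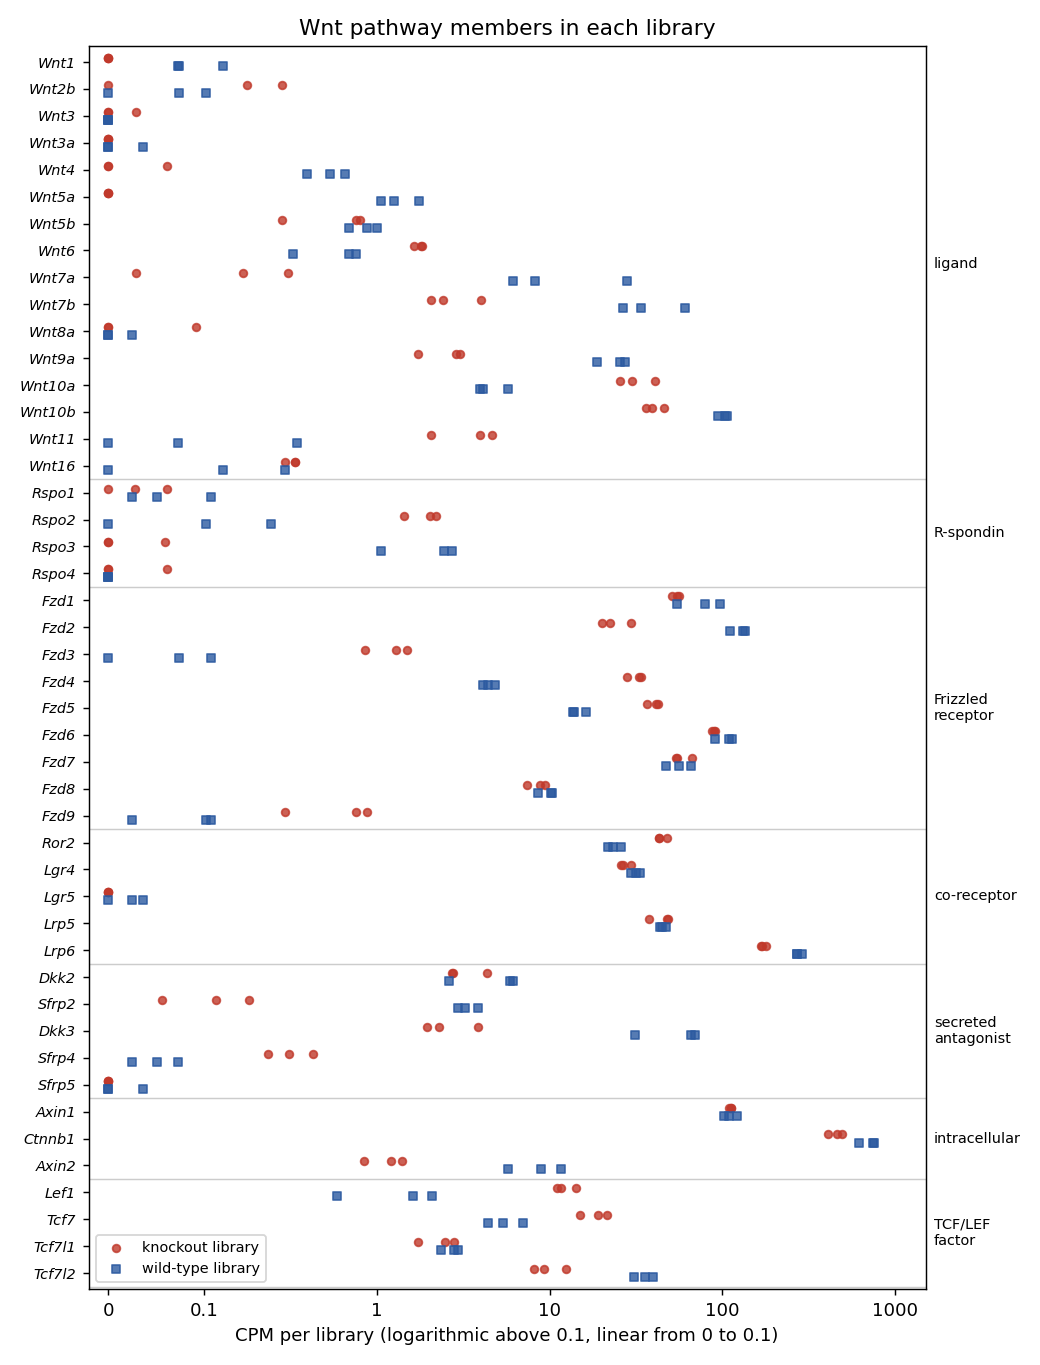
Level of each of the 46 genes in each library, in CPM on an axis that is logarithmic above 0.1 and linear below, with the knockout libraries as red circles and the wild-type libraries as blue squares, grouped by role. Wnt10a, Fzd4, Fzd5, Lef1 and Tcf7 lie to the right in all 3 knockout libraries, Wnt7a, Wnt7b, Wnt9a, Fzd2, Dkk3 and Axin2 to the left, and Axin1, Lrp5 and Fzd7 overlap.

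Promoter windows in the RefSeq table (GRCm38.p6, 250 bases before to 50 after an annotated start) were found for 30 of the 46 genes, and 1 window each of Axin2, Lef1 and Wnt11 is shown. Axin2 and Lef1 were chosen as known targets of the pathway that moved in opposite directions. For Wnt11, 1 of its 2 windows holds the TCF/LEF motif, and that window is shown. The 250 bases before the start are printed 5′ to 3′, all on the plus strand: Axin2 from chr11:108920099-108920348, Lef1 from chr3:131110047-131110296 and Wnt11 from chr7:98834862-98835111. These starts are those of single annotated transcripts, and those of Axin2 and Wnt11 lie inside the annotated gene. Capitals mark a match to the TCF/LEF motif, searched as CTTTGAA or CTTTGAT on both strands.
Axin2: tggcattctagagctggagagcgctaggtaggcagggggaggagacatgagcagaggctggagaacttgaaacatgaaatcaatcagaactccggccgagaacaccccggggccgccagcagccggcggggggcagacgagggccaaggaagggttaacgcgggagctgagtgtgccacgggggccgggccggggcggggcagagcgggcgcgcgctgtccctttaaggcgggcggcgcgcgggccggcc
Lef1: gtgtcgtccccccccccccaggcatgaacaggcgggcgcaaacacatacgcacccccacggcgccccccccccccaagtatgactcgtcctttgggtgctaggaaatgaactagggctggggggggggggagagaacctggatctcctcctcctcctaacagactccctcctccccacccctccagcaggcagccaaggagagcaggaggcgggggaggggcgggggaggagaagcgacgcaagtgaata
Wnt11: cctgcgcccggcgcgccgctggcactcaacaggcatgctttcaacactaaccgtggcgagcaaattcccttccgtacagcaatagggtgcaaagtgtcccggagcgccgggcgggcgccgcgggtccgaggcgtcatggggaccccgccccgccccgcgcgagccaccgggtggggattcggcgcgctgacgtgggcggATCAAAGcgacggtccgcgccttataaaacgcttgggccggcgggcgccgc
The motif occurred once, 51 bases before the start of Wnt11, as ATCAAAG, the reverse complement of CTTTGAT. Among all 39 windows of these genes it was found in 2, the other being a window of Wnt5b, which is 5.13% against 8.65% of all 32851 windows in the table. The 4 windows of Lef1 and the 1 window of Axin2 did not hold these letters, which says nothing about sites elsewhere.

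Among the ligands, the wild-type libraries were led by Wnt10b with Wnt7b, Wnt9a and Wnt7a, and the knockout libraries by Wnt10a and Wnt10b. Of 16 ligand genes 11 were tested, with 3 higher, 6 lower and 2 not past the threshold, where 60.9% of all tested genes were called. Wnt10b (gene ID 22410, chromosome 15, 98770712 to 98778206 on GRCm38.p6, as are all coordinates here), a ligand of the beta-catenin branch that restrains fat cell formation in mesenchyme, had 46.1, 39.3 and 36.3 CPM in the knockout libraries and 106, 94.4 and 103 CPM in the wild-type libraries. The groups did not overlap, and the difference was 2.5-fold, a log2 fold change of -1.32 (SE 0.11, adjusted p = 5.51e-06). Its relative Wnt10a (gene ID 22409, chromosome 1, 74792019 to 74804176), a ligand of skin and tooth development, had 40.6, 25.5 and 30.1 CPM against 5.75, 4.13 and 3.95 CPM. Here each knockout library stood above each wild-type library, by 6.91-fold on average (log2 fold change 2.79, SE 0.21, adjusted p = 4e-06). Per kilobase of exon, a scale on which genes can be compared, Wnt10b fell from 29.8 to 11.9 and Wnt10a rose from 1.87 to 13 CPM per kb.

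Wnt9a, Wnt7b and Wnt7a, all well expressed in wild-type cells, were low in the knockout libraries. Wnt9a, which takes part in joint formation, had 1.74, 3.02 and 2.88 CPM against 27.2, 25.5 and 18.8 CPM, 9.37-fold lower (adjusted p = 2.27e-06). Wnt7b (chromosome 15, 85535437 to 85581821), known for lung and bone development, had 4.01, 2.07 and 2.42 CPM against 26.5, 33.7 and 60.6 CPM, 14.1-fold lower (log2 fold change -3.82, SE 0.37, adjusted p = 5.09e-05). Wnt7a (chromosome 6, 91363981 to 91411353), the dorsal signal of limb ectoderm, had 0.0295, 0.305 and 0.169 CPM against 6.12, 8.24 and 28.1 CPM, a log2 fold change of -6.37 (SE 0.86, adjusted p = 0.000372). Wild-type replicate 3 was the highest for Wnt7a and Wnt7b and the lowest of its group for Wnt9a. Without that library the log2 fold change of Wnt7a was -5.39 (adjusted p = 1.57e-09), and without knockout replicate 2 it was -7.06 (adjusted p = 0.00191). Of 4 epithelial markers tested, Krt19, Krt8 and Cdh1 were lower, while Krt18 stood at a log2 fold change of 0.26 (adjusted p = 0.695 in the edgeR fit). With 3 lower and 0 higher, these counts stand beside 30.2% lower and 30.7% higher among all tested genes. The 7 markers in the table summed to 22.1 to 31.3 CPM in the knockout libraries against 54.4, 66.5 and 108 CPM in wild-type replicates 1, 2 and 3. Most of that sum was Krt19 (24.8 against 74.1 CPM), while Cdh1 had 100 counts over all libraries. Epcam and Esrp1, at 13 and 10 counts over all libraries and not tested, were higher in mean value in the knockout libraries. Cldn4, at 16 counts and not tested, was lower. The part of epithelial cells in the values of Wnt7a and Wnt7b was not tested. In bulk libraries, fewer cells of a type and less RNA per cell cannot be told apart.

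Wnt5a and Wnt4 were at or near 0 in the knockout libraries. Wnt5a (gene ID 22418, chromosome 14, 28504543 to 28527448), the main ligand of the ROR2 branch, had 0 counts in each knockout library against 51, 41 and 48. Setting the knockout group to 3 counts in all, the floor used here for a count of 0, it was 44.6-fold lower. At the 95% limit of counting error it was at least 35.8-fold lower (adjusted p = 5.86e-05 in the edgeR fit). Against the floor, Wnt5a was 29.1-fold to 30.3-fold lower with a knockout library left out, where a floor over 2 libraries is a higher level. With a wild-type library left out it was 39.4-fold to 49.6-fold lower, the smallest value being that without wild-type replicate 3. Wnt4, a ligand of kidney and gonad development, had 0, 2 and 0 counts in the knockout libraries against 16, 21 and 18. That is a 26.3-fold ratio, with 6.94 to 222 as its 95% interval of counting error (adjusted p = 0.000812). Both its counts were in knockout replicate 2, and without that library Wnt4 was 11.9-fold lower against the floor. At 140 and 55 counts over the wild-type libraries, these ligands were a small part of the ligand RNA even there.

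Wnt11 and Wnt6 rose from low levels. Wnt11 (chromosome 7, 98835084 to 98854747), a ligand of cell movement in gastrulation and heart development, had 157, 68 and 140 counts in the knockout libraries and 14, 0 and 2 in the wild-type libraries, which is 4.63, 2.07 and 3.95 CPM against 0.344, 0 and 0.0732 CPM. Its log2 fold change was 4.56 (SE 0.74, adjusted p = 0.000645). Of the 16 wild-type counts, 14 were in replicate 1. Without that library the fitted value was 6.69, which depends on the prior count at so few counts, and without wild-type replicate 2 it was 3.96 (adjusted p = 4.89e-05 and 0.000448). Wnt6, expressed in ectoderm and kidney tubules, had 1.83, 1.8 and 1.64 CPM against 0.762, 0.693 and 0.329 CPM, 2.88-fold higher (adjusted p = 0.00388). Wnt5b, a close relative of Wnt5a, had log2 fold change -0.49 (adjusted p = 0.348), and Wnt16 1.06 with 33 counts over the knockout and 17 over the wild-type libraries (adjusted p = 0.216). Wnt16 was at 2.09 without wild-type replicate 1 (adjusted p = 0.0542) and at 1.72 in limma-voom (adjusted p = 0.0921), past the threshold in neither.

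The 5 ligands below the count filter had few counts. Wnt1, the founding member of the family, had 0 counts in the knockout libraries against 3, 5 and 2, which is 3.19-fold lower against the floor and at least 2.14-fold at the limit of counting error. Wnt2b had 16 counts over the knockout and 7 over the wild-type libraries, and Wnt8a had 3 against 1. Wnt3 and Wnt3a, strong activators of beta-catenin, had 1 count each over all 6 libraries. Among adjacent ligand genes, Wnt6 and Wnt10a were the only pair with both genes tested. They lie 6.7 kb apart on chromosome 1 and were both higher. Wnt10b and Wnt1 lie 11.7 kb apart on chromosome 15 and were both lower in value, although Wnt1 was not tested. The third pair, Wnt3a and Wnt9a on chromosome 11, 16.1 kb apart, could not be compared, because Wnt3a had the 1 count.

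**Figure D2:**
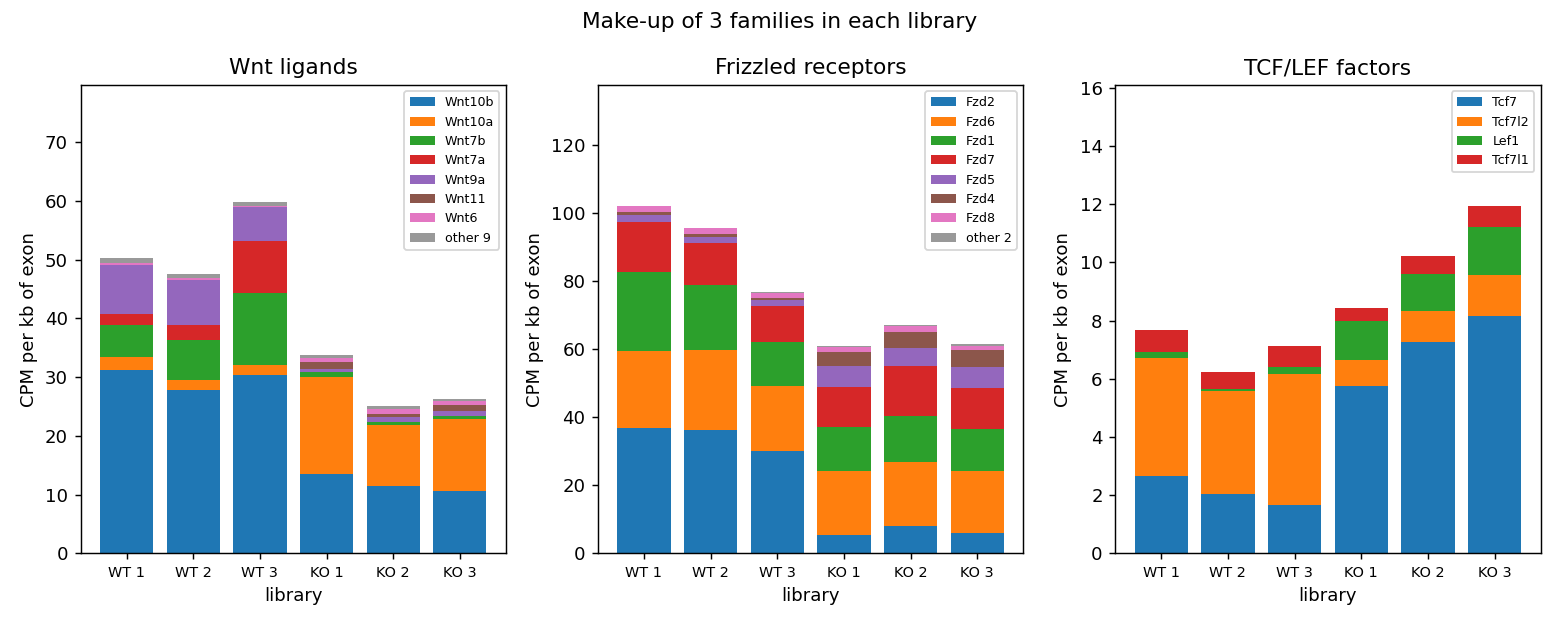
Summed level of Wnt ligands, Frizzled receptors and TCF/LEF factors in each library, in CPM per kilobase of exon, with bars stacked by gene and the 7 most abundant genes of a family drawn singly. Wnt10b dominates the ligands in wild-type (WT) libraries and shares the bar with Wnt10a in knockout (KO) libraries, Fzd2 shrinks, and Tcf7 replaces Tcf7l2 as the largest TCF/LEF part.

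Summed per kilobase of exon, ligand RNA was 28.3 ± 4.72 CPM per kb in the knockout libraries and 52.5 ± 6.47 CPM per kb in the wild-type libraries (SD, n = 3 each). Wnt10a made up 45.5% ± 3.88 of it in the knockout and 3.62% ± 0.99 in the wild-type libraries (SD, n = 3 each). Wnt10b made up 42.3% ± 3.28 and 57.1% ± 5.72. Wnt7b, Wnt9a and Wnt7a together with these were the only ligands above 3% of the sum on average in the wild-type libraries, at 15.3%, 13.9% and 8.04%. The plot of family make-up shows these parts in each library.

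The 2 tested R-spondins, which strengthen Wnt signals by protecting Frizzled receptors from removal, moved in opposite directions. Rspo3 (gene ID 72780, chromosome 10, 29453106 to 29535867), an R-spondin of vessels and mesenchyme, had 2, 0 and 0 counts in the knockout libraries against 111, 96 and 29. Its ratio was 113, with counting error giving 30.9 to 936 (adjusted p = 5.9e-05 in the edgeR fit), and without knockout replicate 1, which held both counts, it was 50.2-fold lower against the floor of 3 counts. Rspo2 (gene ID 239405, chromosome 15, 43020788 to 43171594), needed for limb and lung growth, had 49, 72 and 72 counts in the knockout libraries and 10, 4 and 0 in the wild-type libraries. All knockout libraries were above all wild-type libraries, with a log2 fold change of 3.86 (SE 0.61, adjusted p = 0.00037), which was 4.91 without wild-type replicate 1 (adjusted p = 0.000142). Rspo1 had 3 against 6 counts and Rspo4 2 against 0 over the groups, too few to test. Their receptor gene Lgr4 was at -0.20 on the log2 fold change scale (adjusted p = 0.124), and Lgr5, a stem cell marker and Wnt target, had 0 counts over the knockout and 2 over the wild-type libraries.

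Of the 9 Frizzled genes, which encode the receptors for Wnt ligands, all were tested, with 4 higher, 2 lower and 3 not past the threshold. This count is near the share of 60.9% called among all tested genes. Fzd2 (gene ID 57265, chromosome 11, 102604431 to 102608058), the most abundant Frizzled gene per kilobase in wild-type cells, had 20.2, 29.7 and 22.5 CPM in the knockout libraries and 135, 132 and 111 CPM in the wild-type libraries. The groups were far apart, 5.23-fold on average (log2 fold change -2.39, SE 0.15, adjusted p = 1.19e-06). Fzd4 (gene ID 14366, chromosome 7, 89404366 to 89410110), the receptor of retinal vessel growth, went the other way, with 28, 32.7 and 33.8 CPM against 4.42, 4.85 and 4.1 CPM. Its rise was 7.05-fold (log2 fold change 2.82, SE 0.13, adjusted p = 1.52e-07), the smallest p among the 36 genes. Fzd5, a receptor of eye and gut development, had 41.1, 36.5 and 42.3 CPM against 16.1, 13.9 and 13.7 CPM, 2.74-fold higher (adjusted p = 4.28e-06), and its exons overlap Gm38058 on the opposite strand over 17.8% of their length.

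Fzd3 and Fzd9 rose from near 0. Fzd3, a receptor of axon guidance and planar polarity, had 44, 28 and 53 counts in the knockout libraries against 3, 0 and 3 in the wild-type libraries. Its log2 fold change was 4.34 (SE 0.65, adjusted p = 0.000247), and 3.73 without wild-type replicate 2 (adjusted p = 0.000565). Fzd9, a receptor found in brain and bone, had 10, 25 and 31 counts against 1, 4 and 3, a log2 fold change of 3.03 (SE 0.65, adjusted p = 0.00241). The abundant Fzd7 and Fzd6 did not pass the threshold. Fzd7, a receptor of stem and progenitor cells, had 53.7, 66.4 and 54.9 CPM against 66.1, 56 and 47.2 CPM, overlapping ranges (log2 fold change 0.05, SE 0.14, adjusted p = 0.784). Its sign turned to -0.07 when libraries were scaled by totals only. Fzd6, a receptor of hair patterning, stood at -0.23 (adjusted p = 0.0701), with no overlap between groups, and passed at -0.31 without wild-type replicate 3 (adjusted p = 0.00588). Fzd8 had one of -0.19 (adjusted p = 0.305) on chromosome 18, where the median of the other tested genes was 0.45. Fzd1, abundant in both groups, had 54.8, 56.5 and 51.4 CPM against 97.1, 79.7 and 54.8 CPM, so wild-type replicate 3 lay within the knockout range. Its log2 fold change of -0.51 passed (adjusted p = 0.0337), and the call was lost without any 1 of the other 5 libraries (adjusted p = 0.0754 to 0.111).

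Summed per kilobase, Frizzled RNA was 63.1 ± 3.47 CPM per kb in the knockout and 91.4 ± 13.2 CPM per kb in the wild-type libraries (SD, n = 3 each). Fzd2 made up 37.8% ± 1.68 of it in the wild-type and 10.4% ± 1.55 in the knockout libraries. Fzd6 was the largest part in the knockout libraries, at 29.3% ± 1.3, followed by Fzd1 at 20.5% ± 0.85 and Fzd7 at 20.3% ± 1.29, and the latter pair did not differ beyond their spread.

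Of the co-receptors, Lrp6 fell and Ror2 rose, both by less than 2-fold, while Lrp5 stayed within its spread. Lrp6 (gene ID 16974, chromosome 6, 134446476 to 134566913), the main partner of Frizzled in the beta-catenin branch, had 167, 171 and 179 CPM in the knockout libraries and 288, 270 and 270 CPM in the wild-type libraries. Its log2 fold change was -0.68 (SE 0.09, adjusted p = 8.78e-05). The other tested genes of chromosome 6 had a median of -0.41, and the 38 within 5 Mb of Lrp6 one of -0.72, and the part of this regional level in the value of Lrp6 was not tested. Ror2 (gene ID 26564, chromosome 13, 53109317 to 53286124), the receptor for WNT5A, had 43, 43.2 and 48.1 CPM against 23.3, 21.8 and 25.9 CPM, a log2 fold change of 0.92 (SE 0.11, adjusted p = 5.64e-05). The median of the other genes of chromosome 13 was 0.43, and that of the 79 within 5 Mb was 0.13. Lrp5, the second co-receptor of this kind, had 37.7, 48.7 and 47.7 CPM against 47, 45 and 43.8 CPM (log2 fold change -0.02, adjusted p = 0.892).

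Of 5 secreted antagonist genes 3 were tested, and Dkk3 and Sfrp2 fell while Dkk2 did not pass the threshold. Dkk3 (gene ID 50781, chromosome 7, 112116019 to 112159482), a divergent Dickkopf protein, had 3.86, 1.95 and 2.28 CPM in the knockout libraries and 69.6, 65.5 and 31.2 CPM in the wild-type libraries. The lowest wild-type library was still far above the highest knockout library, and the average difference was 20.5-fold (log2 fold change -4.36, SE 0.38, adjusted p = 2.56e-05). Sfrp2 (gene ID 20319, chromosome 3, 83765750 to 83774314), a secreted Frizzled-related protein that binds Wnt ligands, had 4, 6 and 2 counts against 120, 126 and 105, 27.5-fold lower (log2 fold change -4.78, SE 0.40, adjusted p = 5.61e-06), and its exons overlap the antisense gene Gm26771 over 16.1% of their length. Dkk2, an inhibitor that binds LRP5 and LRP6, had 4.33, 2.71 and 2.76 CPM against 5.87, 6.11 and 2.63 CPM, so wild-type replicate 3 lay below all knockout libraries (log2 fold change -0.58, adjusted p = 0.152). Without that library Dkk2 passed at -0.86 (adjusted p = 0.00158). Sfrp4 had 8, 14 and 11 counts against 1, 2 and 2 and was not tested, and Sfrp5 had 1 count in all. Summed per kilobase, RNA of these 5 genes was 1.82 ± 0.53 CPM per kb in the knockout and 19.4 ± 6.57 CPM per kb in the wild-type libraries (SD, n = 3 each). Dkk3 made up 84% ± 4.77 of the wild-type sum, so the difference is mostly that of Dkk3. Antagonists outside this choice, given further below, are not in the sum.

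**Figure D3:**
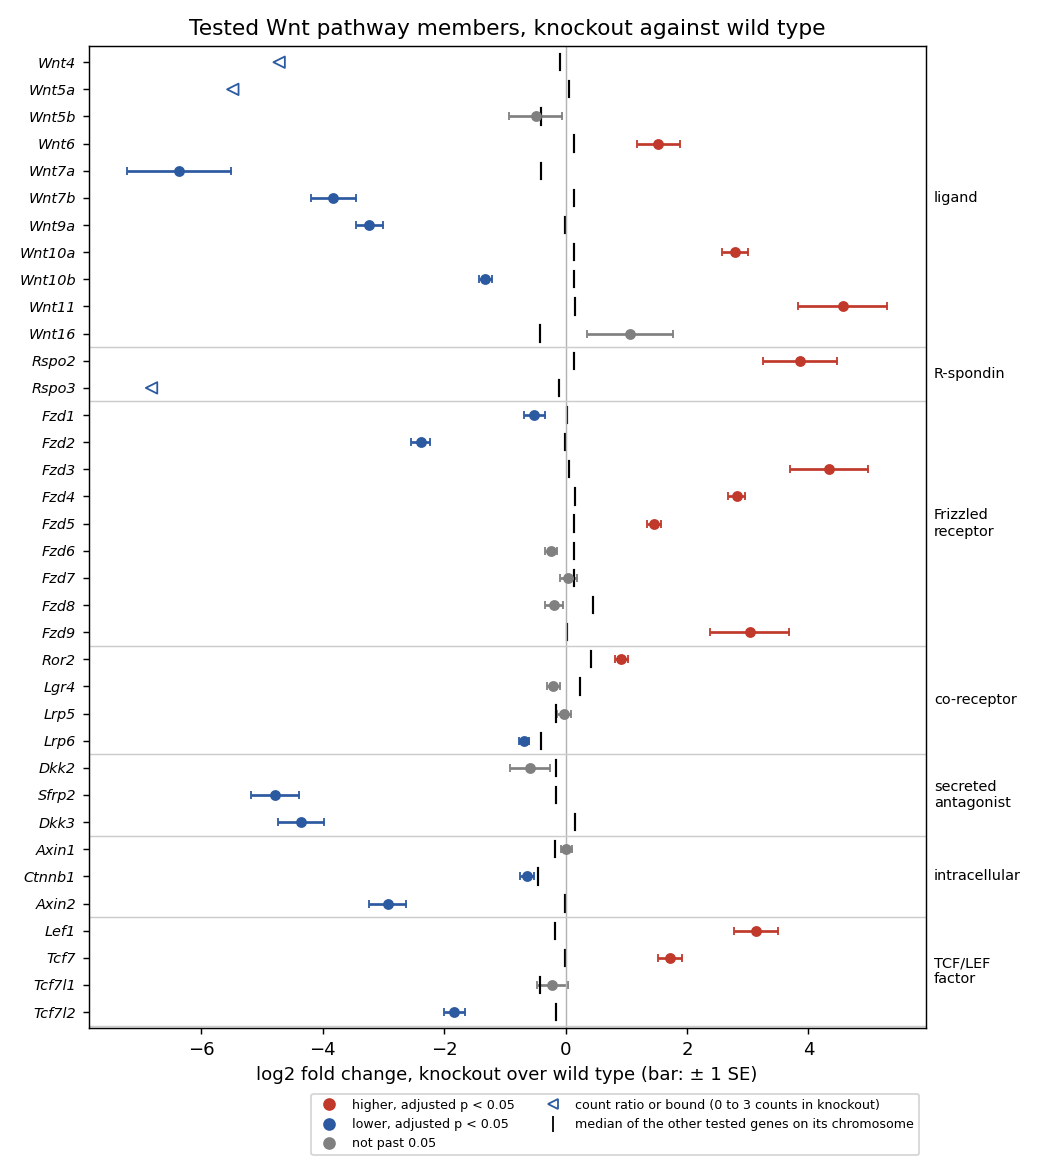
Log2 fold change of the 36 tested genes, knockout over wild type, with bars of 1 SE from the quasi-likelihood fit, coloured by direction and call. Open triangles are count ratios, with a sum of 0 set to 3 counts, for the 3 genes with 0 to 3 counts over the knockout libraries. Black ticks give the median of the other tested genes on the same chromosome. Lrp6 and Ctnnb1 lie close to their chromosome's tick, while Axin2, Lef1, Fzd4 and Dkk3 lie far from theirs.

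Inside the cell, Axin2 fell, Ctnnb1 fell less, and Axin1 did not pass the threshold. Axin2 (gene ID 12006, chromosome 11, 108917828 to 108950783), the scaffold gene that beta-catenin itself turns on, had 1.21, 1.4 and 0.846 CPM in the knockout libraries and 11.6, 8.89 and 5.78 CPM in the wild-type libraries. The groups were separated, with wild-type replicate 3 the lowest of its group, and the difference was 7.62-fold (log2 fold change -2.93, SE 0.30, adjusted p = 2.56e-05). Axin1, the constant scaffold of the destruction complex, had 112, 112 and 110 CPM against 102, 109 and 121 CPM, overlapping ranges with a log2 fold change of 0.01 (adjusted p = 0.93). That sign turned to -0.10 when libraries were scaled by totals only. Ctnnb1 (gene ID 12387, chromosome 9, 120933400 to 120960507), which encodes beta-catenin, was the most abundant of the 46 genes per kilobase of exon, at 87.3 CPM per kb in the knockout and 136 CPM per kb in the wild-type libraries. It had 491, 459 and 410 CPM against 740, 755 and 622 CPM, a log2 fold change of -0.64 (SE 0.11, adjusted p = 0.00076). The median over the other tested genes of chromosome 9 was -0.45, and over the 67 within 5 Mb it was -0.42, and the part of this regional level in the value of Ctnnb1 was not tested. Exons of Ctnnb1 overlap those of Ulk4 on the opposite strand over 14.6% of their length, and the strand setting of the counting is not given.

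The TCF/LEF factors, which carry beta-catenin to DNA, also moved in both directions. Lef1 (gene ID 16842, chromosome 3, 131110297 to 131224357), a factor of hair and limb mesenchyme that is also a Wnt target, had 11.6, 11.1 and 14.3 CPM in the knockout libraries and 1.62, 0.591 and 2.09 CPM in the wild-type libraries. It was 8.77-fold higher (log2 fold change 3.13, SE 0.36, adjusted p = 8.27e-05). Tcf7 (gene ID 21414, chromosome 11, 52246527 to 52283383), known from T cell development, had 15.1, 19.1 and 21.5 CPM against 7.03, 5.39 and 4.39 CPM, 3.29-fold higher (log2 fold change 1.72, SE 0.20, adjusted p = 5.16e-05). Tcf7l2 (gene ID 21416, chromosome 19, 55741797 to 55933659), a factor of gut and metabolic tissues, went from 35.6, 30.9 and 39.5 CPM in the wild-type to 8.08, 9.23 and 12.4 CPM in the knockout libraries, 3.56-fold lower (log2 fold change -1.83, SE 0.17, adjusted p = 1.23e-05). For each of these 3 genes the groups were separated. Tcf7l1, which mostly represses targets, was at -0.21 on that scale (adjusted p = 0.488). TCF/LEF RNA summed per kilobase was 10.2 ± 1.75 CPM per kb in the knockout and 7.01 ± 0.72 CPM per kb in the wild-type libraries (SD, n = 3 each). Tcf7 made up 69.3% ± 1.7 of it in the knockout libraries and 30.4% ± 6.12 in the wild-type libraries, and Tcf7l2 11% ± 0.78 and 57.4% ± 5.22 (SD, n = 3 each). In all, 11 of the 46 genes have exons that overlap another gene on the opposite strand, over 17.8% of exon length for Fzd5, 16.1% for Sfrp2, 14.6% for Ctnnb1, 13.7% for Lef1, 13.1% for Rspo3 and 3.15% to 8.80% for Wnt11, Wnt7b, Wnt5a, Tcf7l1, Axin2 and Fzd6.

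The 6 further lists, by textbook role, held 109 genes of the pathway outside this choice, of which 92 were tested, with 30 higher and 36 lower, and 7 genes stood on more than 1 list. Their median log2 fold change was -0.17, against -0.04 for all tested genes. Of all tested genes, 30.7% were higher and 30.2% lower, and the counts of each list below stand beside these shares. Genes named from these lists passed with adjusted p of 0.000396 or lower in the edgeR fit, except where another p is given. Of 7 tested antagonists and receptor-removing enzymes, 2 were higher and 5 lower. Apcdd1, a membrane inhibitor of Wnt signals, fell from 29.1 ± 2.17 to 8.4 ± 0.63 CPM, although its chromosome, 18, had a median of 0.45. Kremen1, the DKK receptor gene, fell from 83.3 ± 6.82 to 29.1 ± 2.91 CPM (SD, n = 3 each). Igfbp4, a binding protein that also blocks Wnt co-receptors, fell by 1.47 on the log2 scale. Trabd2b, a protease gene acting on Wnt ligands, and Rnf43, a ubiquitin ligase gene that removes Frizzled and is itself a Wnt target, had log2 fold changes of -2.67 and -2.62 (adjusted p = 2.43e-05 and 0.000396). The related ligase gene Znrf3, also controlled by R-spondins, rose by 0.57 on this scale (adjusted p = 0.00509), and Notum, a secreted enzyme that strips the lipid from Wnt ligands, by 0.75 (adjusted p = 0.0273; this pair was chosen after its values were seen). The call of Notum was lost without knockout replicate 1 (adjusted p = 0.113).

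Of 10 tested genes of ligand secretion and other receptors, 3 were higher and 4 lower. Lgr6, a further R-spondin receptor gene, fell from 18.2 ± 3.25 to 2.74 ± 0.56 CPM, and Ryk, a Wnt receptor gene with a kinase-like domain on chromosome 9, from 252 ± 23.5 to 138 ± 8.67 CPM (SD, n = 3 each). Ptk7, a polarity co-receptor gene, and Adgra2, a partner of Frizzled for WNT7 signals, rose from 59.1 ± 6.96 to 126 ± 5.69 CPM and from 116 ± 9.4 to 233 ± 18.7 CPM. Reck, which works with ADGRA2, fell from 5.07 ± 1.13 to 1.42 ± 0.34 CPM. Wls, the carrier of Wnt ligands to the surface, had 281 and 286 CPM in knockout and wild type (adjusted p = 0.863; named after its values were seen).

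Of 28 tested genes of the destruction complex and cytoplasmic transducers, 9 were higher and 10 lower, with a median log2 fold change of 0.01. The casein kinase genes Csnk1g3 and Csnk1a1 rose by 1.26 and 1.19 on the log2 scale, both on chromosome 18 with its median of 0.45. Csnk1g2, on chromosome 10, fell by 0.93. Ctnnbip1, an inhibitor that keeps beta-catenin from TCF factors, fell from 32.6 ± 1.74 to 14.8 ± 0.87 CPM, and Nkd2, a feedback inhibitor gene, from 1.91 ± 0.61 to 0.108 ± 0.017 CPM (SD, n = 3 each). Of 14 tested nuclear cofactors, 3 were higher and 6 lower. Aes, a short Groucho-type corepressor gene, fell from 235 ± 26 to 61.1 ± 0.88 CPM, Bcl9l and Bcl9, which tether activators to beta-catenin, had log2 fold changes of -2.21 and -1.27, and Pygo1, their partner, one of 3.51. Tle1, a Groucho corepressor gene, rose from 29.7 ± 1.75 to 52 ± 1.85 CPM.

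**Figure D4:**
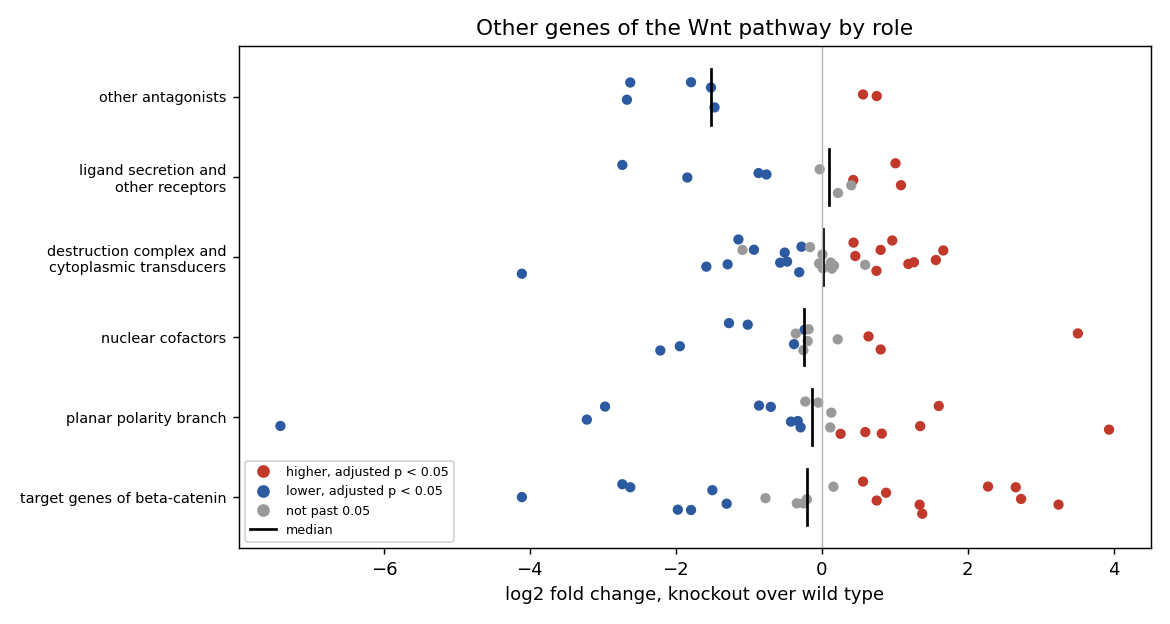
Log2 fold change, knockout over wild type, of the tested genes of 6 further lists of the Wnt pathway, 1 point per gene, red where higher and blue where lower at an adjusted p under 0.05, with a black line at each list's median. Of the 7 other antagonists 5 lie left of 0, while the destruction complex and the target genes spread to both sides.

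Of 18 tested genes of the planar polarity branch, 6 were higher and 8 lower. Daam2, a formin gene that links Dishevelled to actin, fell from 7.28 ± 3.04 to 0.0399 ± 0.047 CPM, with 4 counts over the knockout libraries and log2 fold changes of -7.42 with all libraries and -8.66 without knockout replicate 2, while its relative Daam1 rose from 28.2 ± 1.14 to 85.7 ± 11.7 CPM (SD, n = 3 each). Likewise the polarity gene Prickle1 fell from 37.6 ± 3.93 to 4.79 ± 0.66 CPM and Prickle2 rose from 6.29 ± 1.09 to 16.1 ± 1.54 CPM. Celsr2, a polarity cadherin gene, fell by 3.22 on the log2 scale. Of 21 tested target genes of beta-catenin outside the 46, 9 were higher and 7 lower. Vcan, a matrix proteoglycan gene, and Jag1, a Notch ligand gene, rose by 2.28 and 2.66 on the log2 scale. Twist1, a mesenchymal transcription factor gene, fell from 41.5 ± 6.88 to 14.7 ± 1.99 CPM, and Apcdd1 and Lgr6, given above, also belong here. Myc, named after its value was seen, went from 28.8 ± 22.6 to 271 ± 79.8 CPM (SD, n = 3 each), and its adjusted p from the edgeR fit was 0.00424. Its log2 fold change was 3.24, and 4.12 without wild-type replicate 3. Target genes lay on both sides, as Axin2 and Lef1 did among the 46. Scaling by library totals only moved the median log2 fold change of all genes by -0.12, and none of the 26 called genes among the 46 changed direction under any of the 14 alternative settings in which it was tested.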

How the data were processed

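The authors deposited raw counts as whole numbers, 1 column for each of the 6 libraries. Per the file headers, each row has a gene ID, a symbol, a chromosome and a gene type. Per the labels' protocols, RNA was extracted with Trizol and a kit for stranded total RNA was used. The submitters' processing notes name STAR 2.5.1b and mm10. How reads were counted, on which annotation and with which strand setting, is not stated in any source used here. Genes were filtered with filterByExpr, scaled by TMM and tested two-sided in edgeR 4.0.16 (R 4.3.3) with a robust quasi-likelihood fit on genotype, adjusting p by Benjamini-Hochberg over 15039 genes. The SE is the log2 fold change divided by the square root of F. Genes with 0 to 3 counts in a group are given as count ratios with a 95% exact interval. Where a group had 0 counts, the ratio is to 3 counts in that group, and the lower limit of the exact interval is given with all libraries. Intervals and limits cover counting error only. Exon lengths come from GENCODE M21, and coordinates from RefSeq on GRCm38.p6, the assembly behind mm10. Tested on simulated data for this contrast (15039 genes, 200 changed, all with a mean above 5 CPM), the fit recovered 46.3%, 97% and 98.5% of 1.5-fold, 2-fold and 4-fold changes. It called 15 genes that had not been changed among 176 calls, a larger share than the 5% asked for. These rates do not cover genes at lower levels, such as Wnt4, Wnt11, Fzd3 and Rspo2. Nor do they cover data in which most genes are called, and 60.9% were called here. The genes and lists were chosen with earlier results of these data known. Named were all 46 genes, up to 5 of each other list by p, and Ngly1; other names are marked. Alternatives were DESeq2 1.42.0 size factors and test, library totals, 2 other filters, limma-voom (limma 3.58.1), a replicate block, each library left out and, added after seeing the data, both libraries numbered 3 left out.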

Additional observations from a re-analysis of the deposited data

How the results depend on the processing

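Of the 26 called genes among the 46, 25 kept call and direction under each of the 14 alternative settings in which they were tested, and Fzd1 lost its call with no low-count filter (adjusted p = 0.0602) and without any library but wild-type replicate 3. Counts of higher and lower genes ranged from 9 to 12 and from 14 to 17, the 9 arising where at least 1 CPM in 3 libraries was asked and fewer genes were tested. Without wild-type replicate 3 there were 12 and 17, and without both libraries numbered 3 there were 11 and 17. Fzd6 and Dkk2 passed without wild-type replicate 3, and with totals only Fzd6 and Lgr4 passed as well (adjusted p = 0.0204 and 0.0455). Fzd6 also passed with the filter of at least 1 CPM in 3 libraries (-0.269, adjusted p = 0.0376). Over all genes, scaling by totals moved the share of higher among called genes from 50.4% to 42.4%. Signs turned only for genes that did not pass, and the cause was not tested. Axin1 was at -0.104 with totals only, -0.0259 with the filter of 1 CPM and -0.0478 to 0.0952 with single libraries left out. Fzd7 was at -0.0735 with totals only, -0.011 without both libraries numbered 3, and -0.0521 to 0.174 with single libraries left out. Lrp5 was at 0.00701 with no low-count filter and at -0.0696 to 0.102 with single libraries left out. Wls was at -0.141 to 0.0658 with single libraries left out, and Notum also lost its call with totals only (adjusted p = 0.0645). Ngly1 was at 0.0236 with no low-count filter, 0.014 in the DESeq2 test and -0.178 to 0.103 with single libraries left out. Libraries with the same number correlated at 0.0961, 0.0138 and 0.209 in their deviations from group means, so the numbers were not taken as pairs. With the replicate number as a block, 11 of the 46 were higher and 15 lower, as without it, 4690 and 4563 of all genes against 4621 and 4539, and Ngly1 was at 0.000854. Genes under about 10 counts in both groups, such as Wnt3, Wnt3a, Sfrp5 and Lgr5, cannot be compared at this depth.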
